A study of Mus musculus with 11 samples.

Results

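Cytosolic ribosomal proteins, the protein components of the small and large ribosomal subunits, were examined in 4 sorted populations of mouse bone marrow cells on 11 Illumina MouseWG-6 v2 bead arrays. The genes were taken by symbol: Rpl or Rps followed by a digit, together with Rplp0, Rplp1, Rplp2 and Rpsa, without the Rps6k kinases and without pseudogene names. This rule found 65 of the 19057 gene symbols with a probe, 27 of the small subunit and 38 of the large subunit by name, and each was represented by the probe with the highest mean signal. Several symbols that the rule names, among them Rpl5 and Rpl11, have no probe in the annotation used here and were not analysed. Of the 65 genes, 59 were detected on at least 2 arrays and were tested, and 55 were detected on all 11 arrays. Rpl6, Rps20, Rpl17, Rps23, Rps23rg1 and Rpl39l were detected on 1 array at most and were not tested.

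All cells came from C57BL/6 mice and were sorted from the endosteal region of the marrow. The arrays fell into cells positive for a fluorescein-tagged AGE reagent and sorted as CD31+ B220+ (n = 3), CD31+ B220- (n = 3) or CD31- B220- (n = 3), and haemopoietic stem cells sorted as LSK CD150+ CD48- (HSC, n = 2). CD31 is the adhesion molecule Pecam1, B220 is a form of CD45 carried by B-lineage cells, and LSK cells lack lineage markers and carry Sca-1 and Kit. Scavenger endothelial cells is the labelled cell type of all 3 AGE+ fractions. For CD31- B220- the source name starts with HSC, in conflict with the title, and the title was used. Some RNA samples were pooled, and neither the pools nor separate animals are named for the replicates, so p-values measure only the spread between these samples, which may be technical.

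A ribosome carries 1 copy of nearly every ribosomal protein, and cells keep the mRNAs of these proteins at high and similar levels. The mRNAs begin with a run of pyrimidine bases, the TOP motif, through which mTOR signalling adjusts their translation together. In blood formation the family is best known from Diamond-Blackfan anaemia, in which loss of 1 copy of such a gene impairs red cell production in humans, and from paralogs such as Rpl22 and Rpl22l1 that act in lymphocyte development in mice.

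The cell type names were checked against marker genes, given as summed normalized signals. Of 10 endothelial markers, Tek, Tie1, Emcn, Eng, Stab2 and Flt4 were detected on no CD31+ B220+ array and Cdh5, Tek, Tie1, Emcn, Robo4 and Stab2 on no CD31- B220- array, and their sum reached 699 to 1073 in CD31+ B220+, 2053 to 2730 in CD31+ B220- and 2130 to 2190 in CD31- B220- cells, against 7056 to 7481 in HSC. The 8 B-lineage markers summed to 46406 to 47650 in CD31+ B220+, 10066 to 16352 in CD31+ B220- and 607 to 1002 in CD31- B220- cells, against 1055 to 1132 in HSC. The 8 macrophage and monocyte markers summed to 631 to 1148 in CD31+ B220+, 38099 to 43107 in CD31+ B220- and 31255 to 39354 in CD31- B220- cells, against 2084 to 2591 in HSC. The 9 neutrophil markers had sums of 1606 to 7310, 65090 to 73515 and 23174 to 58798 in the same 3 fractions, against 7538 to 7830 in HSC. The 9 erythroid markers were highest in CD31- B220- cells, at 74365 to 91270, with 19381 to 32362 in CD31+ B220+, 16864 to 33466 in CD31+ B220- cells and 33750 to 46404 in HSC. The 10 stromal markers reached 311 to 470 in CD31+ B220+, 329 to 751 in CD31+ B220- and 4700 to 7985 in CD31- B220- cells, against 490 to 1137 in HSC, and the 9 stem cell markers 521 to 594, 1903 to 2583 and 790 to 967 in the fractions, against 22331 to 23216 in HSC. The 13 cell cycle genes summed to 7547 to 12135 in CD31+ B220+, 20291 to 25106 in CD31+ B220- and 25030 to 35277 in CD31- B220- cells, against 6758 to 7898 in HSC. The part of these marker differences in the results below was not tested.

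After quantile normalization, most ribosomal protein genes were level among the 3 AGE+ fractions when read by their brightest probe. The family median in CD31+ B220+ against CD31- B220- cells was then 0.01. It was -0.32 with arrays scaled to a common median, and -0.20 with the median of detected probes. All tested genes had medians of 0.02, -0.06 and 0.06 in the same order. The part of quantile normalization in this was not tested. Second probes of some genes did differ, as given below. After quantile normalization, the largest difference between any pair of fractions stayed under 0.5 on the log2 scale for 47 of the 59 tested genes. Its median was 0.20. The moderated F-test of limma, with Benjamini-Hochberg adjustment over all 11367 tested genes, called 8 of the 59 at an adjusted p under 0.05, which is 13.6%, where 51.9% of all tested genes were called. Of 57 other bright genes (mean log2 signal of at least 13, as held for 36 of the 59), 36.8% were called. The replicates of a group had a median SD of 0.15 log2 units for the ribosomal protein genes, 0.17 for the other bright genes and 0.30 for all tested genes. What lies behind the low share called was not tested.

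**Figure D1:**
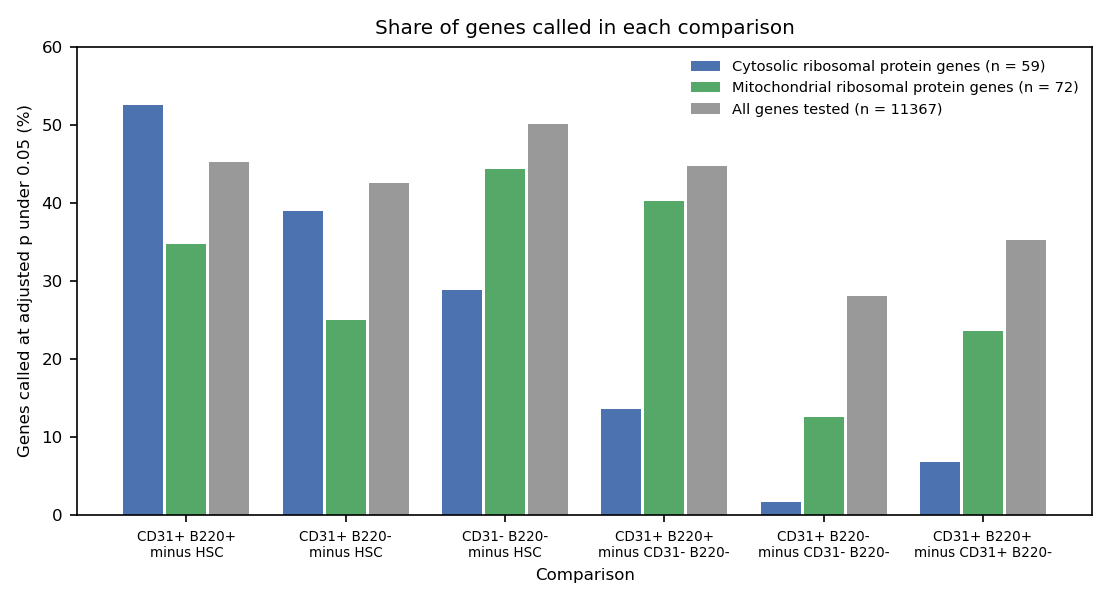
Percent of genes called at an adjusted p under 0.05 (y axis) in each of the 6 pairwise comparisons (x axis), for the 59 tested cytosolic ribosomal protein genes, 72 mitochondrial ribosomal protein genes and all 11367 tested genes. In the 3 comparisons between fractions the cytosolic bars reach 13.6, 1.69 and 6.78%, below the 44.8, 28.1 and 35.2% of all genes.

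By pairs of fractions, CD31+ B220+ against CD31- B220- cells gave 3 genes higher and 5 lower of 59 (13.6%), beside 22.3% higher and 22.5% lower of all tested genes (44.8%) and 14% higher and 19.3% lower of the other bright genes (33.3%). CD31+ B220- against CD31- B220- cells gave 1 higher and 0 lower (1.69%), beside 16% and 12.1% of all tested genes (28.1%) and 10.5% and 8.77% of the other bright genes (19.3%). CD31+ B220+ against CD31+ B220- cells gave 2 higher and 2 lower (6.78%), beside 16.7% and 18.5% of all tested genes (35.2%) and 1.75% and 15.8% of the other bright genes (17.5%). The last pair is the only one of the 3 in which the split of all called genes moved by over 10 points between scalings, with 47.4% of calls higher after quantile normalization and 36.3% after scaling arrays to a common median. The median difference of the 59 genes was 0.01, 0.05 and -0.01 in these 3 pairs, and -0.32, -0.12 and -0.17 under the common median. None of the genes called between fractions changed sign under either of the other scalings.

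The genes that did differ were not the brightest of the family. All 8 had a mean log2 signal under 13, and 3 of them (Rpl3l, Rps27l, Rpl22l1) are among the 7 tested paralogs and further symbols caught by the rule. The remaining 5 were Rpl22, Rplp0, Rps15a, Rpl4 and Rpl7a. In these sorted mixtures a smaller share of cells that carry an mRNA and less of it per cell cannot be told apart.

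**Figure D2:**
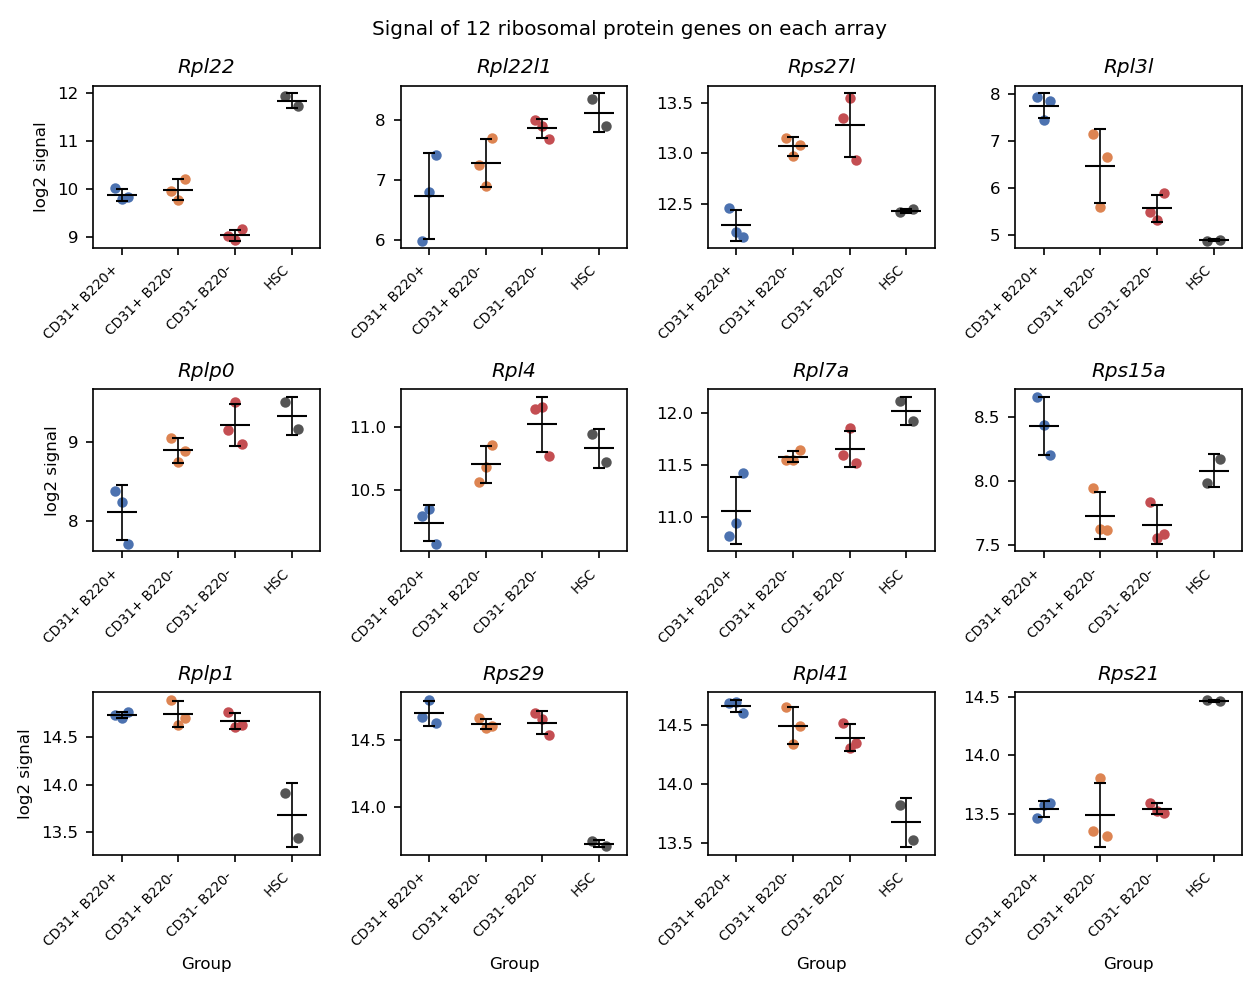
Normalized log2 signal (y axis, each panel with its own range) of 12 ribosomal protein genes on each array, by group (x axis); points are arrays, the long bar is the group mean and the whiskers are 1 SD (n = 3, and 2 for HSC). The 8 genes called between fractions fill the upper panels, where the Rpl22 points of CD31- B220- cells lie at 8.93 to 9.15, below all other groups.

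Rpl22, a large-subunit protein that also binds RNA outside the ribosome and is required for lymphocyte development in mice, was called in more comparisons than any other member. Its log2 signal was 10.02, 9.79 and 9.82 in CD31+ B220+, 9.96, 9.77 and 10.21 in CD31+ B220- and 9.01, 8.93 and 9.15 in CD31- B220- cells, against 11.94 and 11.72 in HSC. CD31- B220- cells were lowest, HSC highest, and the CD31+ fractions overlapped in between. CD31+ B220+ cells were 0.85 ± 0.17 (SE) log2 units above CD31- B220- cells (1.80-fold, adjusted p = 0.00165), and CD31+ B220- cells were 0.95 ± 0.17 above them (1.93-fold, adjusted p = 0.00145). The CD31+ fractions differed from each other by -0.11, which did not pass the test. The log2 difference from HSC was -1.96 ± 0.19 in CD31+ B220+ (3.88-fold lower, adjusted p = 7.66e-06), -1.85 ± 0.19 in CD31+ B220- (3.60-fold, 1.92e-05) and -2.80 ± 0.19 in CD31- B220- cells (6.97-fold, 4.91e-07). It was called in 5 of the 6 comparisons. The signal before normalization was 331 to 785 on the 9 fraction arrays and 7323 and 8910 on the HSC arrays. It was 480.5, 330.9 and 589.4 in CD31- B220- and 555.3, 539.7 and 784.6 in CD31+ B220+ cells, which overlapped. In CD31+ B220- cells it was 762.9, 667.2 and 730.2.

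Rpl22l1, the paralog whose mRNA Rpl22 protein represses in mice, ran differently. Its log2 signal was 5.98, 6.81 and 7.43 in CD31+ B220+, 7.25, 6.89 and 7.70 in CD31+ B220- and 8.0, 7.91 and 7.70 in CD31- B220- cells, against 8.36 and 7.90 in HSC. CD31+ B220+ cells lay below both CD31- B220- cells and HSC with no overlap, and CD31- B220- cells overlapped HSC. CD31+ B220+ cells differed from CD31- B220- cells by -1.13 ± 0.33 (2.19-fold lower, adjusted p = 0.0155) and from HSC by -1.39 ± 0.37 (2.63-fold lower, adjusted p = 0.00944). Both calls rest on single arrays: without the first CD31+ B220+ array the first became -0.75 (adjusted p = 0.0537), and without the first HSC array the second became -1.17 (adjusted p = 0.0938). The CD31- B220- cells therefore had the lowest Rpl22 signal of the fractions beside an Rpl22l1 signal of 7.87 ± 0.16 (SD, n = 3), and the levels of these probes cannot be set against each other.

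Rps27l, a paralog of the small-subunit gene Rps27 and a p53 target in human cells, was lower in the B220+ fraction. It measured 12.46, 12.22 and 12.17 in CD31+ B220+, 13.15, 12.97 and 13.08 in CD31+ B220- and 13.35, 13.55 and 12.93 in CD31- B220- cells, against 12.42 and 12.45 in HSC. Both B220- fractions lay above the B220+ fraction and above HSC on every array. The difference was -0.99 ± 0.18 for CD31+ B220+ against CD31- B220- cells (1.99-fold lower, adjusted p = 0.000963) and -0.78 ± 0.18 against CD31+ B220- cells (adjusted p = 0.00634). Against HSC it was +0.84 ± 0.21 in CD31- B220- (adjusted p = 0.00523) and +0.63 ± 0.21 in CD31+ B220- cells (adjusted p = 0.0276), while CD31+ B220+ cells differed by -0.15 and were not called. The higher level against HSC kept its sign but not its call under common-median scaling, where adjusted p was 0.161 in CD31- B220- and 0.842 in CD31+ B220- cells. The CD31+ B220- call was also lost without either HSC array (adjusted p = 0.121 and 0.101) and without the first or the third CD31+ B220- array (adjusted p = 0.069 and 0.062).

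Rpl3l, the striated muscle paralog of Rpl3, had the largest difference between fractions in the family. Its log2 signal was 7.94, 7.45 and 7.85 in CD31+ B220+, 7.15, 5.59 and 6.66 in CD31+ B220- and 5.49, 5.31 and 5.89 in CD31- B220- cells, against 4.88 and 4.90 in HSC, where it was detected on neither array. The CD31+ B220+ arrays lay above all others, and the CD31+ B220- arrays ranged widely. CD31+ B220+ cells were 2.18 ± 0.34 above CD31- B220- cells (4.54-fold, adjusted p = 0.000238) and 1.28 ± 0.34 above CD31+ B220- cells (2.43-fold, adjusted p = 0.0113). With HSC below background, the signal was at least 5.58-fold higher in CD31+ B220+ (adjusted p = 8.25e-05) and at least 2.30-fold higher in CD31+ B220- cells (adjusted p = 0.00576). Signals before normalization were low throughout, at 126 to 280 in the fractions and 152 and 160 in HSC. Its parent gene Rpl3, of the large subunit, averaged 14.05, 14.12 and 14.04 in CD31+ B220+, CD31+ B220- and CD31- B220- cells and 14.29 in HSC and passed no comparison.

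Rplp0 forms the base of the stalk that recruits translation factors, and Rplp1 and Rplp2 are its other parts. The brightest Rplp0 probe gave 8.37, 8.23 and 7.70 in CD31+ B220+, 9.05, 8.74 and 8.88 in CD31+ B220- and 9.16, 9.51 and 8.98 in CD31- B220- cells, against 9.51 and 9.16 in HSC. CD31+ B220+ arrays were the lowest, with differences of -1.11 ± 0.22 from CD31- B220- cells (2.16-fold, adjusted p = 0.00148), -0.79 ± 0.22 from CD31+ B220- cells (adjusted p = 0.0158) and -1.23 ± 0.25 from HSC (adjusted p = 0.00171). The call against CD31+ B220- cells was lost without the third CD31+ B220+ array (-0.59, adjusted p = 0.0624) and without the first CD31+ B220- array (-0.71, adjusted p = 0.0554). Averaged with its second, dim probe, which was detected on 3 arrays, the differences from the same groups were -0.65, -0.33 and -0.53 and none was called (adjusted p = 0.0515, 0.347 and 0.14). The brightest probes of the other stalk genes were not called between fractions. Rplp1 averaged 14.74, 14.74 and 14.67 in the 3 fractions. Rplp2 passed no comparison, at 13.39 to 14.14 in the fractions and 13.77 and 14.43 in HSC. The Rplp0 probe was far dimmer than these, and whether the stalk genes differ from each other was not tested.

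The other called genes of the large subunit, Rpl4, whose protein lines the exit tunnel for new peptides, and Rpl7a, were lower in CD31+ B220+ cells. Rpl4 gave 10.29, 10.35 and 10.07 in CD31+ B220+ and 11.14, 11.16 and 10.77 in CD31- B220- cells, a difference of -0.79 ± 0.17 (adjusted p = 0.00312). Rpl7a gave 10.82, 10.95 and 11.43 in CD31+ B220+ and 11.60, 11.86 and 11.53 in CD31- B220- cells, a difference of -0.59 ± 0.19 (adjusted p = 0.0233). Neither pair of groups overlapped. The Rpl7a call was lost without the first or the second CD31+ B220+ array (-0.47 and -0.53, adjusted p = 0.0882 and 0.0804) and without the second CD31- B220- array (-0.50, adjusted p = 0.0874). Rps15a, a small-subunit gene reported in Diamond-Blackfan anaemia, went the other way, with 8.65, 8.44 and 8.20 in CD31+ B220+, 7.94, 7.62 and 7.62 in CD31+ B220- and 7.83, 7.55 and 7.59 in CD31- B220- cells. CD31+ B220+ cells were above CD31- B220- cells by 0.77 ± 0.18 (adjusted p = 0.00421) and above CD31+ B220- cells by 0.70 ± 0.18 (adjusted p = 0.01, and 0.115 under common-median scaling).

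Because the genes called between fractions include paralogs, the promoters of the family were read from RefSeq (GRCm38.p6), which held a start site for 54 of the 65 genes. Of these 54, 42 (77.8%) had a run of at least 8 C or T bases on the gene's strand within 50 bases of the start, against 35.7% of 27025 mouse starts. The ETS motif CCGGAAG, on either strand within 250 bases before to 50 after the start, was present in 22 (40.7%), against 9.12%. The YY1 motif AAGATGGC was found in 5.56% against 2.88%, and the TATA box TATAAA in 9.26% against 14.2%. Shown are 100 bases before to 20 after the start of 5 genes called between fractions, with these motifs and pyrimidine runs in capitals and the rest in lower case, 5′ to 3′ on the gene's strand. They lie at chr4:152325626-152325745 (Rpl22, plus strand), chr3:28805408-28805527 (Rpl22l1, plus), chr9:66945986-66946105 (Rps27l, plus), chr17:24727726-24727845 (Rpl3l, plus) and chr7:118116128-118116247 (Rps15a, minus).
Rpl22: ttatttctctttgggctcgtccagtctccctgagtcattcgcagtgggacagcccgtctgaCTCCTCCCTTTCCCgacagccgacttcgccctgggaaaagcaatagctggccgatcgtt
Rpl22l1: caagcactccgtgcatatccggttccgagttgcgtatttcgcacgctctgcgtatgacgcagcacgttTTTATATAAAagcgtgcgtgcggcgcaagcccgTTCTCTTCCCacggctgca
Rps27l: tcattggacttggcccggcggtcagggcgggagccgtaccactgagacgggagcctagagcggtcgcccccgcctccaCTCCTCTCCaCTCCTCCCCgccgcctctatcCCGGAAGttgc
Rpl3l: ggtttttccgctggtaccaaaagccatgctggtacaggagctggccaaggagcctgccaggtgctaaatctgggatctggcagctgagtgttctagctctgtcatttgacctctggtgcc
Rps15a: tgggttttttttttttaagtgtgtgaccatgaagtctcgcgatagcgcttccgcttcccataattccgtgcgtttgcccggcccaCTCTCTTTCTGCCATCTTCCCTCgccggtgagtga
Rpl22 and Rps15a hold a pyrimidine run ahead of the start, and in Rps15a a YY1 match on the other strand follows that run and overlaps a second run at the start. Rpl22l1 holds a TATA box, with overlapping matches on both strands, and a run at the start. Rps27l holds paired runs and an ETS match, and Rpl3l holds none of the letters searched in this window. Of the genes called between fractions but not shown, Rplp0 also holds none in this window, and Rpl4 and Rpl7a each hold a run.

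Against HSC, the family had calls in both directions after quantile normalization, a split that changed with the scaling, as given below. CD31+ B220+ cells had 9 genes higher and 22 lower of 59 (52.5%), beside 18.4% higher and 26.9% lower of all tested genes (45.3%) and 22.8% and 12.3% of the other bright genes (35.1%). CD31+ B220- cells had 10 higher and 13 lower (39%), beside 17.5% and 25% of all tested genes (42.5%) and 28.1% and 3.51% of the other bright genes (31.6%). CD31- B220- cells had 6 higher and 11 lower (28.8%), beside 20.6% and 29.5% of all tested genes (50.1%) and 29.8% and 5.26% of the other bright genes (35.1%). The 3 comparisons share the HSC arrays. The median log2 difference of the 59 genes was -0.24, -0.23 and -0.22 in the same order, beside -0.06, -0.09 and -0.08 for all tested genes.

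**Figure D3:**
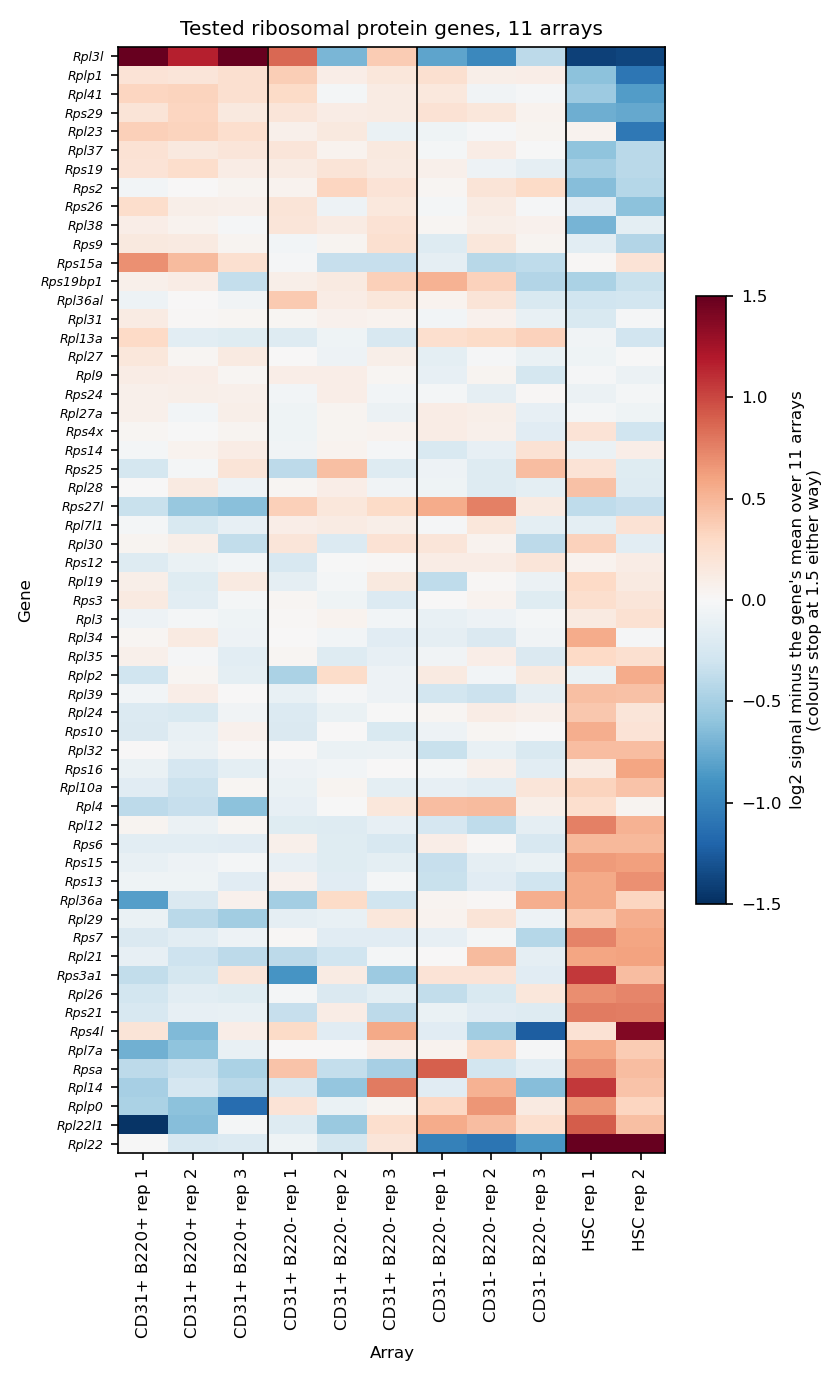
Quantile-normalized log2 signal minus the gene's mean over 11 arrays (colour, red above and blue below, limited at 1.5 either way) for the 59 tested genes (rows, ordered by the log2 difference of CD31+ B220+ cells from HSC) and 11 arrays (columns, grouped). The HSC columns separate from the fractions for most genes, in both directions, while few rows differ among the fractions, Rpl3l most.

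The count of genes and the direction of the family against HSC depended on the scaling. After scaling to a common median of all probes, the same comparisons gave 5 higher and 36 lower, 3 and 31, and 3 and 27 genes, with medians of -0.87, -0.73 and -0.48 beside -1.22, -1.14 and -1.08 for all tested genes. After scaling to a common median of detected probes, a setting added after the data were seen, they gave 35 higher and 5 lower, 36 and 3, and 44 and 3, with medians of 0.69, 0.71 and 0.96 beside 0.34, 0.30 and 0.36. Of all called genes, 40.6, 41.2 and 41.1% were higher after quantile normalization, 8.93, 10.6 and 13.1% after the common median and 66.0, 66.5 and 64.5% after the median of detected probes. The HSC arrays stood apart in signal before normalization, with a 75th percentile of 377 and 451 against 146 to 212 on the fraction arrays and a median ribosomal protein signal of 24277 and 25855 against 6723 to 13367. The ribosomal protein genes took 7.10 to 8.11% of the summed signal of tested genes on the fraction arrays and 6.10 and 5.07% on the HSC arrays. Leaving out 1 array also moved counts: of the 22 genes lower in CD31+ B220+ cells, 14 were still called without the second CD31+ B220+ array, 11 without the first HSC array and 13 without the second. In CD31+ B220- cells the calls fell to 6 higher and 8 lower without the first HSC array.

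**Figure D4:**
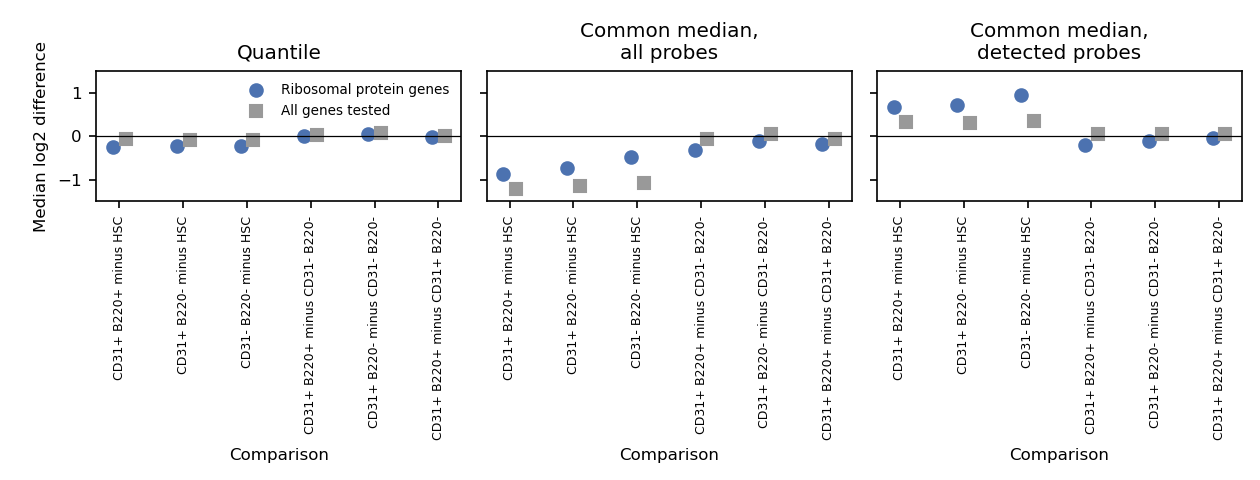
Median log2 difference (y axis) of the 59 tested ribosomal protein genes and of all tested genes in each comparison (x axis), under quantile normalization and scaling to a common median of all or of detected probes (panels). Against HSC the medians of the family run from -0.24 to -0.22, from -0.87 to -0.48 and from 0.69 to 0.96 in the 3 panels, and between fractions from -0.01 to 0.05, from -0.32 to -0.12 and from -0.20 to -0.05.

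Direction against HSC after quantile normalization also went with brightness. Of 17 genes with a mean log2 signal of at least 14, 8, 7 and 5 were called higher in CD31+ B220+, CD31+ B220- and CD31- B220- cells and 0 lower. Of 19 genes between 13 and 14, 0, 1 and 0 were higher and 10, 9 and 8 lower. Of 23 genes under 13, 1, 2 and 1 were higher and 12, 4 and 3 lower. Before normalization, both HSC arrays lay above every fraction array for 10 of these 17 brightest genes, such as Rpl35, of the large subunit, at 11755 to 20408 on the fraction arrays and 31737 and 34581 on the HSC arrays. For the other 7 the groups overlapped, as for Rplp1 at 17581 to 33496 on the fraction arrays and 25815 and 23534 on the HSC arrays. Whether probe brightness has a part in these directions was not tested.

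**Figure D5:**
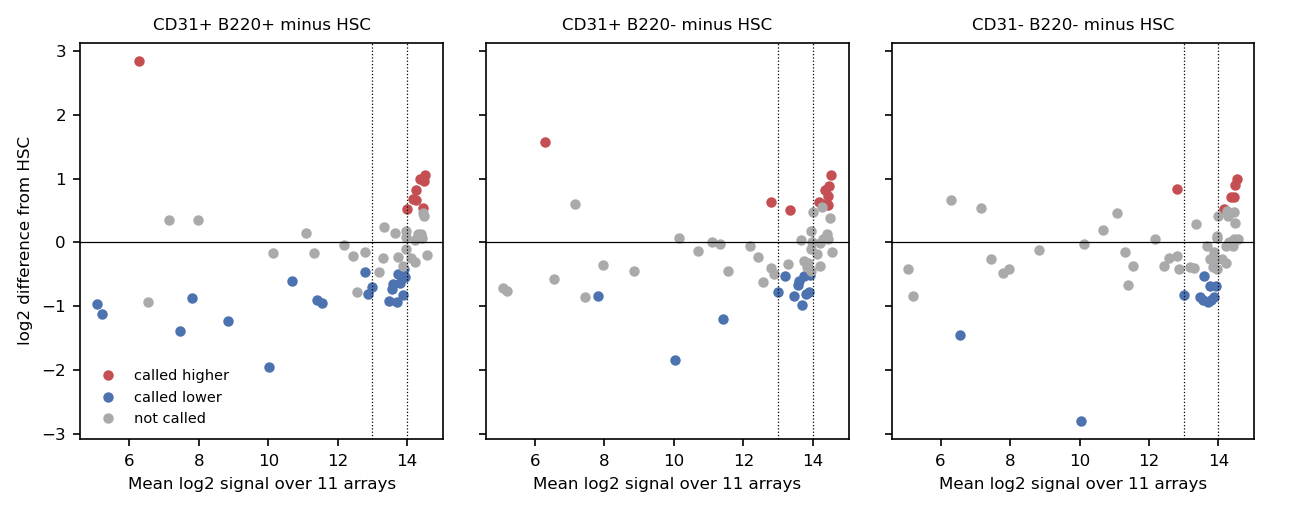
Log2 difference from HSC after quantile normalization (y axis) against mean log2 signal over 11 arrays (x axis) for the 59 tested genes in each fraction (panels), coloured by call; dotted lines mark 13 and 14. Calls above 0 gather at the right edge, with Rpl3l, Rps27l and Rpl36al the exceptions under 14, and calls below 0 lie to the left of 14; other scalings turn some of these directions.

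Second probes of a gene gave different answers in several cases. Of 18 genes with several detected probes, 11 had probes of opposite sign in each comparison with HSC. In a fit of all detected probes, the brightest probe of Rpl23, whose protein can bind Mdm2 in human cells, was above HSC by 0.82 in CD31+ B220+ cells (adjusted p = 0.0334), and another probe differed by -1.01 (adjusted p = 0.0019). Rpl23 was the only gene with opposite calls, and its HSC arrays differed by over 1 log2 unit on the brightest probe, at 14.31 and 13.18. Without the second HSC array the difference of the brightest probe was 0.26 (adjusted p = 0.386), and its call was also lost without the first or the second CD31+ B220+ array (adjusted p = 0.0591 and 0.0612). The brightest Rps9 probe differed by 0.41 (adjusted p = 0.119) and its second by -0.57 (adjusted p = 0.0279) in the same comparison. A second Rpl38 probe differed by -1.66 between CD31+ B220+ and CD31- B220- cells (adjusted p = 1.8e-05), and the brightest by -0.01. In the same fit and pair, other probes of Rpl29 (-0.85), Rpl31 (-0.77 and -0.56) and Rps2 (-0.73) were also called lower. So was an Rps24 probe detected on all 11 arrays (-0.58), while a second Rps13 probe was called higher (0.93). The brightest probes of these genes were not called in this pair. A dim Rps24 probe was detected on both HSC arrays, at a mean log2 signal of 8.23, and on no fraction array, while the brightest Rps24 probe differed by 0.13 between CD31+ B220+ cells and HSC (adjusted p = 0.572).

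Some differences from HSC kept their sign under all 3 scalings, which held for 16 of 31, 12 of 23 and 8 of 17 called genes in CD31+ B220+, CD31+ B220- and CD31- B220- cells. Among those lower were Rpl22 in all 3 fractions, Rpl21 and Rps3a1 in both CD31+ fractions, Rplp0, Rpl4, Rpl7a, Rpl14 and Rpl22l1 in CD31+ B220+ cells and Rps4l in CD31- B220- cells. Under the median of detected probes, however, Rpl14 was at -0.18, Rpl4 at -0.30 and Rpl7a at -0.39 in CD31+ B220+ cells (adjusted p = 0.703, 0.268 and 0.148), and Rps3a1 was called in neither CD31+ fraction. Among those higher, Rplp1, Rps29, Rpl41, Rpl37 and Rps2 were called in all 3 fractions. Before normalization, however, the signals of each of these genes overlapped between fraction and HSC arrays. Rps29, for example, lay at 16404 to 29562 on the fraction arrays and 24226 and 26863 in HSC. Unless another scaling is named, the values that follow are after quantile normalization. Rplp1 was 14.73, 14.71 and 14.77 in CD31+ B220+, 14.89, 14.63 and 14.70 in CD31+ B220- and 14.77, 14.61 and 14.63 in CD31- B220- cells, against 13.92 and 13.44 in HSC. Every fraction array was above both HSC arrays, by 1.06, 1.06 and 0.99 on average (SE 0.19, adjusted p = 0.000778, 0.000899 and 0.00104). Rps29, a small-subunit gene of Diamond-Blackfan anaemia, was 14.53 to 14.80 on the fraction arrays and 13.74 and 13.71 in HSC, with differences of 0.97, 0.89 and 0.90 (SE 0.16). Rpl41, the smallest ribosomal protein, was higher by 0.99, 0.82 and 0.72 (SE 0.18), and its call was lost in CD31- B220- cells without the second HSC array (0.57, adjusted p = 0.0678) and in both B220- fractions under common-median scaling (adjusted p = 0.0796 and 0.0862). Rps2 and Rpl37 lost their calls in all 3 fractions without the first HSC array. Under common-median scaling Rpl37 was called in none of them (adjusted p = 0.298, 0.271 and 0.162). Rps2 then lost its call in both CD31+ fractions (adjusted p = 0.345 and 0.0787). In the fit of all detected probes, a second Rps2 probe differed from HSC by -0.49 in CD31+ B220+ cells (adjusted p = 0.0562). With the mean of its probes, Rps2 differed by 0.02 there (adjusted p = 0.92).

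Other differences turned with the scaling. Rps21 of the small subunit measured 13.46, 13.58 and 13.59 in CD31+ B220+, 13.35, 13.80 and 13.31 in CD31+ B220- and 13.59, 13.53 and 13.51 in CD31- B220- cells, against 14.47 and 14.46 in HSC, and was called lower, at -0.93, -0.98 and -0.93 (SE 0.19). With arrays scaled to the median of detected probes the same differences were 0.39, 0.37 and 0.63. Rpl26, which binds p53 mRNA in human cells, was called lower, at -0.91, -0.84 and -0.85 (SE 0.19), and became 0.24, 0.33 and 0.55. Rpl39, of the exit tunnel, was called lower, at -0.42, -0.51 and -0.69 (SE 0.16), and became 0.92, 0.85 and 0.86; its call in CD31+ B220+ cells was lost in 10 of the 11 fits that leave out an array, and that in CD31+ B220- cells in 4. These genes have no settled direction against HSC.

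The remaining genes of the family known from blood disease include Rps19, the gene most often mutated in Diamond-Blackfan anaemia. After quantile normalization it was above HSC by 0.66 ± 0.16 in CD31+ B220+ and by 0.61 ± 0.16 in CD31+ B220- cells. Both calls were lost without the first HSC array (adjusted p = 0.0516 and 0.0763) and under common-median scaling (adjusted p = 0.216 and 0.208). Before normalization the Rps19 signal was lower on every fraction array, at 14490 to 24063, than in HSC, at 24277 and 28286. Rps14, deleted in the human 5q- syndrome, lay at 13.98 to 14.43 on all 11 arrays and differed by at most 0.09 in any comparison. Of the 12 tested Diamond-Blackfan genes, 3 rose and 2 fell in CD31+ B220+, 2 rose and 3 fell in CD31+ B220- and 1 rose and 2 fell in CD31- B220- cells against HSC, with medians of 0.14, 0.05 and -0.05. The shares called, 41.7, 41.7 and 25%, stand beside 45.3, 42.5 and 50.1% of all tested genes. These values are after quantile normalization only.

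Rpsa and Rpl14 had dim probes. Rpsa, the laminin receptor protein of the small subunit, and Rpl14, of the large subunit, were detected on no CD31+ B220+ array and on both HSC arrays, which puts them at least 1.09-fold and 1.35-fold lower in CD31+ B220+ cells. Rpsa and Rpl14 each lost their call when any of 6 arrays was left out, and Rpsa reversed to 0.11 under the median of detected probes. Rps3a1, of the small subunit, differed from HSC by -0.91 ± 0.31 in CD31+ B220+ (adjusted p = 0.0318) and by -1.20 ± 0.31 in CD31+ B220- cells, and the call was lost in both without the first HSC array, and in CD31+ B220+ cells also without the first or the second CD31+ B220+ array.

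The other paralogs and related symbols were not called between fractions. Rpl36al was above HSC by 0.52 ± 0.18 in CD31+ B220- cells (adjusted p = 0.0408), but differed by -0.018 under common-median scaling and lost its call without either HSC array (adjusted p = 0.153 and 0.126); its relative Rpl36a passed no comparison, at 11.74 to 12.62 in CD31+ B220+ cells and 13.13 and 12.89 in HSC. Rps4l, annotated as a transcribed pseudogene related to Rps4x, measured 6.37, 6.02 and 5.32 in CD31- B220- cells, against 6.77 and 7.94 in HSC, a difference of -1.45 ± 0.41 (adjusted p = 0.0124) that became -0.86 (adjusted p = 0.174) without the second HSC array. Rps4x itself lay at 14.14 to 14.64 on every array. Rpl7l1, a paralog of Rpl7, stayed within 9.91 to 10.35, and Rps19bp1, a nucleolar partner of Rps19 and not a ribosomal protein, passed no comparison at 6.67 to 7.67.

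Mitochondrial ribosomal protein genes, whose products form the separate ribosome of mitochondria, were called mainly lower in CD31+ B220+ cells than in the other fractions. Of 72 tested, 3 were higher and 26 lower in CD31+ B220+ than in CD31- B220- cells, with a median difference of -0.33, and 2 were higher and 15 lower than in CD31+ B220- cells. The shares called, 40.3 and 23.6%, stand beside 44.8 and 35.2% of all tested genes, of which 22.3% were higher and 22.5% lower in the first comparison and 16.7 and 18.5% in the second. The other scalings gave 0 higher and 32 to 34 lower in the first comparison and 2 higher and 15 to 16 lower in the second. Mrpl55 and Mrpl14 of the large mitochondrial subunit were lower than in CD31- B220- cells, by a log2 difference of -1.36 ± 0.25 and -1.28 ± 0.20 (adjusted p = 0.000782 and 0.00025). Against HSC, 26 were higher and 6 lower in CD31- B220- cells after quantile normalization, but 0 and 45 under the common median and 36 and 5 under the median of detected probes. Cell cycle gene sums moved beside this group, being lowest of the fractions in CD31+ B220+ cells; their part was not tested.

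Of 17 tested elongation factors and other mRNAs with a TOP motif, 0 were higher and 2 lower in CD31+ B220+ than in CD31- B220- cells, namely the elongation factor subunits Eef1d (-0.72 ± 0.16, adjusted p = 0.00275) and Eef1b2 (-0.47 ± 0.18, adjusted p = 0.0486); this is 11.8%, beside 44.8% of all tested genes. None was called in the other pairs of fractions. Against HSC, 3 were higher and 7 lower in each fraction, with 0 to 1 higher and 8 to 13 lower under the common median and 8 to 10 higher and 2 lower under the median of detected probes. After quantile normalization the share called was 58.8% in each fraction. Of all tested genes, 45.3, 42.5 and 50.1% were called in CD31+ B220+, CD31+ B220- and CD31- B220- cells. Tpt1, a translationally controlled growth protein, was higher by 2.61 ± 0.52, 1.88 ± 0.52 and 2.21 ± 0.52 in CD31+ B220+, CD31+ B220- and CD31- B220- cells, and stayed positive under both other scalings, though not called in CD31+ B220- cells under the common median (adjusted p = 0.132).

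Genes for making ribosomes were counted against HSC beside all tested genes, of which 18.4, 17.5 and 20.6% were higher and 26.9, 25 and 29.5% lower in CD31+ B220+, CD31+ B220- and CD31- B220- cells. Of 37 tested ribosome biogenesis genes, 2, 1 and 0 were higher and 8, 10 and 13 lower in the same order, against 1, 0 and 1 higher and 34, 33 and 31 lower under the common median, and 7 higher in each and 7, 6 and 8 lower under the median of detected probes; the share called after quantile normalization was 27, 29.7 and 35.1%. Of 13 genes for RNA polymerase I, which transcribes ribosomal RNA, 1, 0 and 1 were higher and 5, 5 and 8 lower, with 0 higher and 11 lower in each under the common median and 3, 2 and 2 higher and 7, 4 and 7 lower under the median of detected probes. The polymerase subunits Polr1b and Polr1c were lower in CD31+ B220+ cells, at -1.94 ± 0.33 and -1.61 ± 0.25, as was Nop14, of small-subunit assembly, at -1.58 ± 0.24, and all 3 were called lower in every fraction under each scaling. Between fractions, 8 biogenesis genes were higher and 2 lower in CD31+ B220+ than in CD31- B220- cells, 27% called beside 44.8% of all tested genes, turning to 2 and 6 under the common median. Among them Nmd3, the export adaptor of the large subunit, was 1.45 ± 0.24 higher in CD31+ B220+ than in CD31- B220- cells (adjusted p = 0.000408). In the mTOR and Myc list of 19, 3 were higher and 4 lower in this comparison (36.8%), and Mtor was 1.58 ± 0.19 higher in CD31+ B220+ than in CD31- B220- cells (adjusted p = 3.1e-05), and Mxd1, a Myc antagonist, was lower, at -1.60 ± 0.24. In the p53 response list of 9, 1 was higher and 1 lower (22.2%), namely Mdm2 and Bbc3. Mdm2 was 1.25 ± 0.16 higher in the same comparison and the cell death gene Bbc3 lower, at -0.98 ± 0.18. The differences of Nmd3, Mtor, Mxd1, Mdm2 and Bbc3 were called in the same direction under the other scalings.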

How the data were processed

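Total RNA of sorted cells was labelled and hybridized to MouseWG-6 v2 arrays, per the labels. The deposited non-normalized values are a bead intensity per probe and array; a deposited fraction, named as a p-value for detection, rose with the signal (Spearman at least 0.987) and was therefore read as 1 minus p. The authors' deposited processed values, on what matches a log2 scale (1.57 to 14.89; base not given in the sources used here), were used as an alternative. Per the submitters' processing notes, lumi 1.1.0 was used, in no stated role.

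Intensities were background-corrected and quantile-normalized with neqc (limma 3.58.1, R 4.3.3, the data.table package at version 1.17.8; offset 16, log2). Of 45281 probes, 34885 carried a single symbol and 10396 were left unnamed, 18 of these for carrying several. Genes detected at p under 0.05 on at least 2 arrays (11367) entered 1 limma fit of all 11 arrays, with 1 mean per group and 6 contrasts. Benjamini-Hochberg adjustment ran over all of these genes, separately for each contrast. The number of arrays limits precision. Bounds ("at least") set an undetected group at the lowest detected signal of its arrays. The fit was tested on simulated data. The members and gene lists were chosen with earlier results of these data known. Named genes were, in each comparison, the 3 called members with the largest difference each way, the stalk proteins, Rpsa, Rpl23, paralogs, Rps14, Rps19 and up to 2 called genes of each other list; Rpl4, Rpl7a, Rpl14, Rpl21, Rpl37, Rps2 and the second probes were named after their values were seen.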

Additional observations from a re-analysis of the deposited data

How the results depend on the processing

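Rpl3l, Rpl22, Rps15a, Rpl22l1, Rplp0 and Rps27l kept their called directions between fractions under every alternative that kept them in the fit, and counts against HSC moved most with the scaling. Scaling to a common median gave, in CD31+ B220+, CD31+ B220- and CD31- B220- cells against HSC, 5, 3 and 3 members higher and 36, 31 and 27 lower; in CD31+ B220+ against CD31- B220- cells 8 lower; in CD31+ B220+ against CD31+ B220- cells 1 higher and 4 lower; and in CD31+ B220- against CD31- B220- cells 1 lower. Scaling to the median of detected probes gave 35, 36 and 44 higher and 5, 3 and 3 lower against HSC, and 1 lower between the B220- fractions. Without background correction, 20 members were lower in CD31+ B220- cells and 10 higher and 19 lower in CD31- B220- cells against HSC, with 4 lower in CD31+ B220+ against CD31+ B220- cells and 1 lower between the B220- fractions. Normexp without detection p gave 10 higher in CD31- B220- cells against HSC, and likewise 4 and 1 lower. Among genes detected on all 11 arrays, CD31+ B220+ against CD31+ B220- cells had 1 higher and 4 lower, and the B220- fractions 1 lower; restricting only the members to this filter gave 1 higher. Without paralogs, the F-test called 5, and the B220+ fraction had 3 lower against CD31- B220- and 1 higher and 1 lower against CD31+ B220- cells, fewer members being tested. With the replicate number as a block, 2 members were higher in CD31+ B220- than in CD31- B220- cells, the F-test called 7, and 4 of 59 named calls were lost (Rps3a1, Rpl39, Rpl4 and Rpl14 in CD31+ B220+ cells against HSC). Same-numbered arrays correlated at -0.08 to 0.18 in their deviations, so the numbers were not taken as pairs.

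Directions reversed for Rpl23 in CD31+ B220+ cells against HSC with the mean of all probes (-0.14), for Rpl36al in CD31+ B220- cells under the common median (-0.018) and, under the median of detected probes, for Rpl39 (0.92, 0.85 and 0.86 in the 3 fractions), Rps21 (0.39, 0.37 and 0.63), Rpl26 (0.24, 0.33 and 0.55) and Rpsa (0.11 in CD31+ B220+ cells); the cause was not tested. Leaving out each array in turn, with a lone HSC array assumed to vary like the other groups, gave 6 to 9 higher and 12 to 22 lower in CD31+ B220+, 6 to 11 and 8 to 14 in CD31+ B220- and 5 to 8 and 10 to 13 in CD31- B220- cells against HSC. Between fractions it gave 3 to 3 and 4 to 5 (CD31+ B220+ against CD31- B220-), 1 to 2 and 0 to 1 (CD31+ B220- against CD31- B220-) and 2 to 2 and 1 to 3 (CD31+ B220+ against CD31+ B220-), and 6 to 8 by the F-test. The lower count of 1 in the last pair arose without the first CD31+ B220- array. A block for slide was not run because the column headers name no slides. The median of detected probes, the members without paralogs and the members detected on all 11 arrays were added after seeing the data.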
